A study of Mus musculus with 4 samples.

Results

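The 9 genes described here encode the 5 NF-kB transcription factor subunits (Rela, Rel, Relb, Nfkb1 and Nfkb2) and 4 proteins that restrain or modulate them (Nfkbia, Nfkbie, Nfkbiz and Tnfaip3). They were chosen by name among 21887 protein-coding genes of the RefSeq table, and every ATAC-seq peak was taken whose midpoint lay inside the mm10 span of a gene or within 50000 bp of it. ATAC-seq cuts accessible DNA with the Tn5 transposase, so that a peak marks open chromatin. The material was dermal fibroblasts of C57BL/6 mice in 4 groups of 1 library each. The first was a conditional Sod2 knockout (Sod2-/-), which lacks the mitochondrial manganese superoxide dismutase, and it was set against a Sod2+/+ control. The second was Sod2+/+ fibroblasts treated with rotenone (250 µM per the labels), which blocks complex I of the respiratory chain, set against Sod2+/+ fibroblasts given vehicle. All 4 samples carry the label 100 days, which does not say what the days count. The driver of the deletion, the number of animals and the age of the mice were not stated.

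NF-kB subunits form dimers that are held in the cytoplasm by inhibitory IkB proteins and enter the nucleus once these are degraded after signals from cytokine or pattern recognition receptors. The dimers bind a short G-rich element, the kB site. Several genes of the system are themselves NF-kB targets: newly made inhibitors end the response, and newly made subunits prolong it. In skin fibroblasts the pathway is known for driving chemokines, cytokines and matrix-degrading enzymes.

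The promoter sequences were searched for the kB site. RefSeq promoter windows (GRCm38.p6, the assembly behind mm10, 250 bases before to 50 after a start site) were listed for 6 members, with 9 windows in all, and none for Nfkb1, Relb and Nfkbiz. The NF-kB consensus motif of 10 bases, searched on both strands, occurred in 7 of these 9 windows and at 5 of the 6 genes, Rela being the exception. Of all 32851 windows in the table, 8.46% held it, and of the 14253 windows with at least 55% G and C, 12.5% did. The 3 Nfkb2 windows belong to 1 gene, and windows 2 and 3 of it share a site, so the windows are not independent. The AP-1 motif TGANTCA occurred in 3 of the 9 windows (Nfkb2, Nfkbie and Tnfaip3), against 7.81% of all windows and 4.08% of the GC-rich ones, among which 8 of the 9 member windows fall, and no match of either motif overlapped a match of the other. A match describes letters and does not show that a factor was bound. The 250 bases before the start site are shown for the 4 genes whose motif lay under a strong peak in at least 1 library, on the gene's own strand, with NF-kB consensus matches in capitals and AP-1 matches left in lower case. They lie at chr19:46304487-46304736 (plus strand, Nfkb2), chr12:55492648-55492897 (minus strand, Nfkbia), chr10:19015411-19015660 (minus strand, Tnfaip3) and chr11:23770970-23771219 (minus strand, Rel).
Nfkb2 first start site: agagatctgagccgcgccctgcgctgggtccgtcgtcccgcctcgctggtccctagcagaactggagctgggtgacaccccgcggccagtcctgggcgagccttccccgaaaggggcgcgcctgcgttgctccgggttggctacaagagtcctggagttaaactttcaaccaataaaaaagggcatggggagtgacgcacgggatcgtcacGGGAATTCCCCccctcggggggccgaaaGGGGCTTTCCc
Nfkbia: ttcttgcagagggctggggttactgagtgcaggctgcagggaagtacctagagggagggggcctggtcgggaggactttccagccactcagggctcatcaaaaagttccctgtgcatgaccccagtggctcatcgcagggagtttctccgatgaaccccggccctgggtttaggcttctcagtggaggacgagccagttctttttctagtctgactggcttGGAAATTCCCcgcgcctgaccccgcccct
Tnfaip3: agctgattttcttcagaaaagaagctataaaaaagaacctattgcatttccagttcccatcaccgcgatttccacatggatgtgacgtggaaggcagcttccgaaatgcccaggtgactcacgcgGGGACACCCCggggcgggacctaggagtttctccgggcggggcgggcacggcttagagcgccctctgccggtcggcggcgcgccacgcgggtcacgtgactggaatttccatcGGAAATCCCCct
Rel: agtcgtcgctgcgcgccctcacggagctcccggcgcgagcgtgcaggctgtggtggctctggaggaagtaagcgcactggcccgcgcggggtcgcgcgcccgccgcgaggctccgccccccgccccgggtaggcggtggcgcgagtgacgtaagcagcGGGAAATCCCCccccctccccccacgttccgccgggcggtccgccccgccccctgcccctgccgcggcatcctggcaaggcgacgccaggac

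In Nfkb2 the sites GGGAATTCCC, with an overlapping match 1 base on, and GGGGCTTTCC began at positions -39 and -11 from the first start site. In Nfkbia the site GGAAATTCCC began at -29 from the start site, and in Tnfaip3 GGGACACCCC and GGAAATCCCC began at -125 and -12. In Rel the site GGGAAATCCC, again with an overlapping match, began at -92. A further site, GGGACTTTCC, lay 10 bases after the second Nfkb2 start site, at chromosome 19, 46305705-46305714.

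The authors' lists held 585165 peaks in the knockout, 433013 in control, 347438 in rotenone and 340240 in vehicle. Because the lists differ in length, the 30000 peaks of each list with the highest −log10 p were called strong. Depth is unknown, each group has 1 library, and no difference below has a replicate check or a p-value. Strong peaks of the knockout and of rotenone had lower fold enrichments (medians 5.49 and 5.99) than those of control and vehicle (6.78 and 7.13) and were narrower (293 and 277 bp against 376 and 349 bp), and the part of this in the values below was not tested. Within 1000 bp of Sod2, 1 strong peak was seen in the knockout, 2 in control, 1 in rotenone and 2 in vehicle, which does not check the genotype because the deleted part is not stated. Of 9 fibroblast marker genes, 4 to 6 had a strong peak inside or within 1000 bp in each library (Col1a1, Lum and Thy1 in none), as had 3 of 5 keratinocyte, 1 or 2 of 4 endothelial, 1 or 2 of 4 melanocyte, 0 or 1 of 3 adipocyte and 0 of 4 lymphocyte markers in each library. Of 5 myeloid markers, 1 had a strong peak in the knockout, 3 in control, 2 in rotenone and 3 in vehicle. In such bulk libraries fewer cells with an open site and a site less open in each cell cannot be told apart.

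At the 9 loci, which span 1139550 bp with their flanks, the lists held 377 peaks in the knockout, 299 in control, 242 in rotenone and 263 in vehicle. With a −log10 q of at least 2 these were 210 in the knockout, 206 in control, 168 in rotenone and 196 in vehicle. Strong peaks numbered 36 in the knockout, 32 in control, 32 in rotenone and 34 in vehicle. Per gene the median was 4, 3, 3 and 4 in that order of libraries, against a median over all protein-coding genes of 2, 2, 3 and 2. The quartiles over all genes were 1 and 4 in each library, and no median of the 9 genes exceeded the upper one. Of the 9 genes, 6, 6, 4 and 6 stood above the median over all genes. Nfkbia led with 7, 8, 7 and 7 strong peaks, and Tnfaip3 had 2, 1, 1 and 1. Merging the strong peaks of the 4 libraries gave 42457 regions, of which 48 lay at the NF-kB genes: 18 inside a member or within 1000 bp and 30 farther off. Of the 48 regions, 8 had their midpoint inside another protein-coding gene and 28 had the member itself as the nearest gene, so the windows hold elements of neighbours too. The strong region nearest to the limit of the window on its inner side lay 48716 bp from Nfkbie (fold 4.43 in the knockout, 4.93 in rotenone), and the nearest strong peak outside it lay 56218 bp from Rel (fold 5.19 in rotenone).

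**Figure D1:**
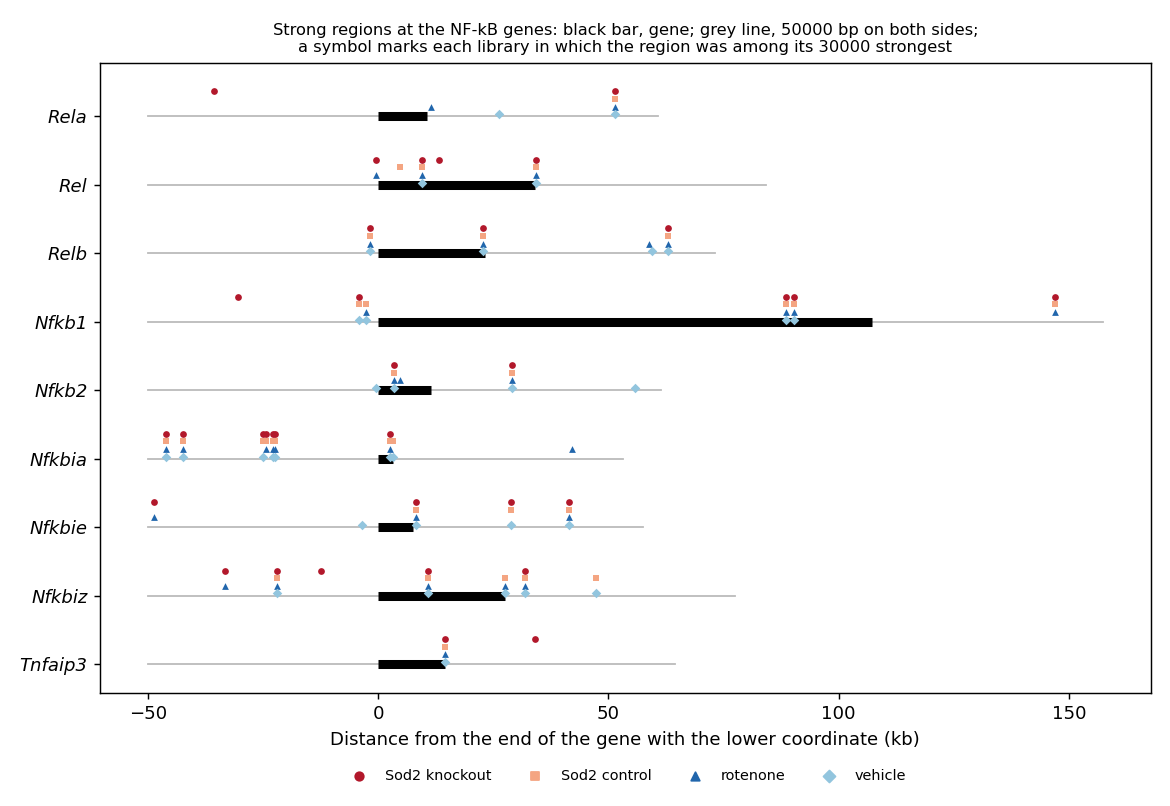
Strong regions at the 9 loci, with distance in kb from the gene end of lower coordinate on the x axis, 1 row per gene and 1 symbol for each library in which the region was among the 30000 strongest peaks. At Nfkbia 6 regions cluster more than 20 kb from the gene on its lower-coordinate side, and 21 of the 48 regions carry all 4 symbols.

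A peak of some strength was present in all 4 libraries at each of the 48 NF-kB regions. Over all 42457 regions such a peak was missing at 301 in the knockout, 275 in control, 475 in rotenone and 369 in vehicle. Of the 48 regions, 21 (43.8%, 95% Wilson interval 30.7-57.7) were strong in all 4, against 46.1% of all regions. A strong peak was called gained when it overlapped none of the 60000 highest ranked peaks of the other library, and lost in the reverse case. In the knockout 2 of 36 strong peaks were gained (5.56%, interval 1.54-18.1), against 5.33% of all strong knockout peaks, and 2 of 32 strong control peaks were lost (6.25%, interval 1.73-20.1), against 6.76% of all. In rotenone 3 of 32 strong peaks were gained (9.38%, interval 3.24-24.2), against 6.81% of all, and 1 of 34 strong vehicle peaks was lost (2.94%, interval 0.521-14.9), against 8.04% of all. Each interval, which covers counting error only, included the share over all strong peaks, so these counts show nothing particular to the NF-kB genes. The 2 Sod2+/+ libraries without rotenone, vehicle set against control, gave 0 of 34 gained (1.03% of all) and 1 of 32 lost (0.847% of all). When the partner list was searched at every strength down to the length of the shortest list, 0 of the 8 calls of both comparisons were left. Of all strong peaks, that rule called 0.303% gained and 0.643% lost in the knockout comparison. In the rotenone comparison it called 0.773% gained and 0.953% lost.

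A looser rule asked only whether a strong peak missed the 30000 strongest of the other library. In the knockout 9 of 36 did (22.8% of all strong knockout peaks), and 5 of 32 control peaks did (23.6% of all). In rotenone 9 of 32 did (24.4% of all), and 11 of 34 vehicle peaks did (24.8% of all). Between vehicle and control 5 of 34 vehicle peaks (14.1% of all) and 3 of 32 control peaks did (14.1% of all). By merged region, 3 of the 48 were strong in the knockout and rotenone only (6.18% of all regions) and 2 in control and vehicle only (7.52% of all). A single library alone was strong at 5 regions for the knockout (6.51% of all), 1 for control (4.72% of all), 4 for rotenone (7.07% of all) and 5 for vehicle (5.49% of all).

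To compare libraries of unlike enrichment, each of the 42457 regions was also placed as a percentile of this common set by its −log10 p in each library, with 100 the strongest. In the knockout 28 of the 48 NF-kB regions stood lower than in control, against 49.9% of all regions, with a median shift of -2.46 points (all regions 0.01). In rotenone 23 of the 48 stood lower than in vehicle, against 49.7% of all, with a median shift of 0.41 points (all regions 0.03). Between vehicle and control 24 stood lower, against 51.7% of all. The sign of the knockout median turned with vehicle in place of control (0.80 points). The median size of a shift was 12.3 points in the knockout comparison and 12.1 points in the rotenone comparison, against 5.68 points between vehicle and control at the same regions. Over all regions these sizes were 13.8, 14.3 and 6.72 points.

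**Figure D2:**
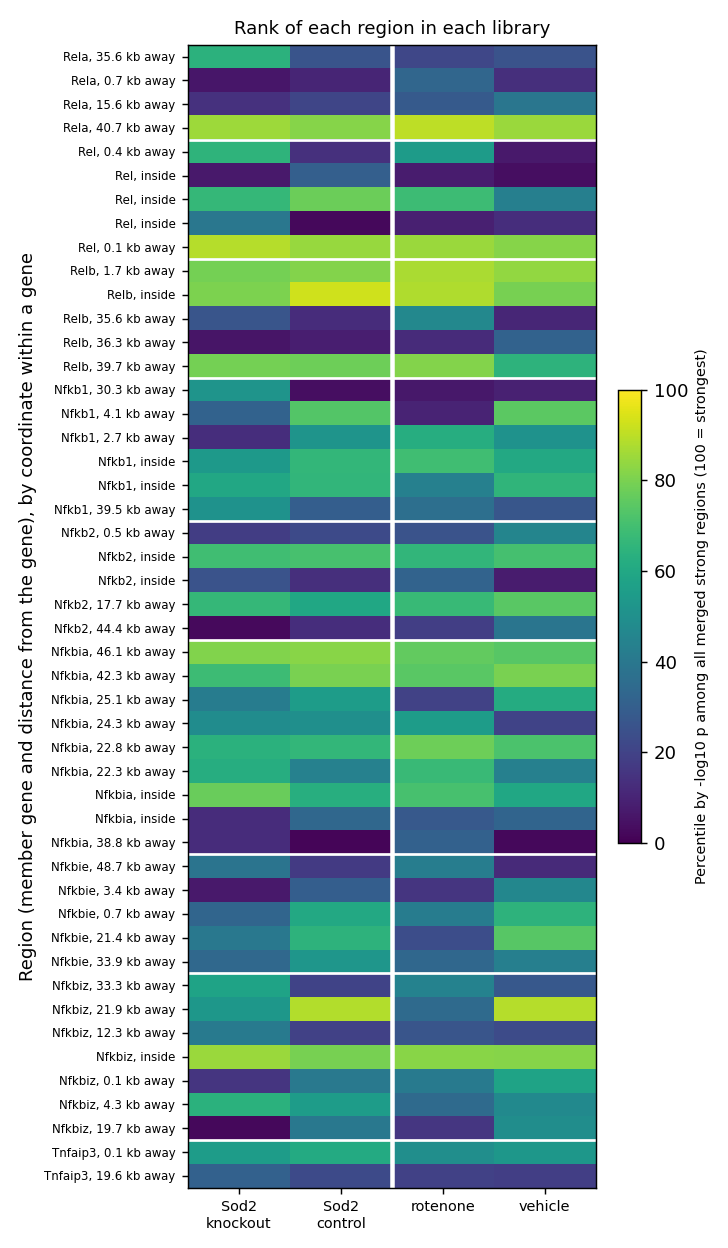
Percentile of each of the 48 regions (by gene and coordinate) in the 4 libraries (columns), by −log10 p among all 42457 merged strong regions, where 100 is the strongest. The regions 4079 bp from Nfkb1 and 21866 bp from Nfkbiz stand at 31.4 and 52.8 in the knockout, 73.1 and 88.5 in control, 9.81 and 34.4 in rotenone and 74.9 and 88.9 in vehicle.

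Among the subunits, Rel had a promoter of nearly equal fold in the 4 libraries and the region with the largest upward shift. Rel encodes c-Rel, a subunit best known from lymphocytes (gene at chromosome 11, 23736847-23770969). The promoter region at 23770291-23771902, which holds the kB sites shown above, had a fold of 7.60 in the knockout, 7.54 in control, 7.60 in rotenone and 7.40 in vehicle. Its percentile lay between 81.7 and 89.0 in every library, with shifts of 4.397 points in the knockout and 3.38 points in rotenone. In the knockout the peaks left a gap at the kB sites, as in control, whereas 1 peak covered them in rotenone and in vehicle.

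At the other end of Rel, 449 bp beyond the gene on the side away from the start site, the region 23736185-23736612 had a fold of 5.53 in the knockout, 4.29 in control, 5.49 in rotenone and 3.85 in vehicle. Both the knockout and the rotenone library thus stood above their own control, by 51.1 and 48.01 percentile points, the largest upward shifts at the 48 regions. The rotenone peak counted as gained. The knockout peak did not, because a control peak of rank 45194 overlapped it. Inside Rel a peak at 23749893-23750085 was gained in the knockout, with a fold of 4.43 there, 2.78 in control, 3.48 in rotenone and 4.51 in vehicle. The vehicle fold was as high as that of the knockout, and its rank of 47470 was below the strong range. A peak at 23741494-23741652, also inside Rel, was called lost, with a fold of 2.97 in the knockout, 5.34 in control, 3.36 in rotenone and 3.42 in vehicle. It was strong in control alone and was also called lost between vehicle and control.

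Rela encodes the main activating subunit (chromosome 19, 5637442-5648134), and its promoter was open below the strong range in all 4 libraries. The best peak over the promoter window had a fold of 3.89 in the knockout, 3.71 in control, 3.91 in rotenone and 3.71 in vehicle, with ranks of 35136, 59831, 44097 and 68450. The groups differ little in fold, and the knockout and rotenone ranked above their controls. The strong region of the locus found in all 4 libraries lay 40669 bp away, inside Pcnx3 and Map3k11 (folds 6.67, 8.11, 8.37 and 8.18 in the same order). The largest knockout shift at the locus was at a region of 148 bp, 35591 bp off and nearest to Rnaseh2c, with folds of 5.64 in the knockout, 5.04 in control, 4.09 in rotenone and 5.33 in vehicle. Its percentile was 38.6 points above control. In rotenone the largest shift was 19.6 points, 749 bp beyond the gene (chromosome 19, 5648812-5648955, fold 4.68 in rotenone and 4.57 in vehicle).

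Relb, which encodes the subunit of the non-canonical pathway (chromosome 7, 19606217-19629438), had a strong region over its higher-coordinate end at 19628351-19629574. The fold was 6.59 in the knockout, 9.72 in control, 7.94 in rotenone and 6.69 in vehicle, and control stood above the other 3 libraries, vehicle included. These folds belong to unlike peaks. In vehicle 1 peak of 1224 bp covered the region. It was split into 3 peaks in the knockout, 3 in control and 2 in rotenone, the best of them 561, 555 and 591 bp wide. The percentile shift was -12.3 points in the knockout and 8.52 points in rotenone, and vehicle minus control was -13.3 points. The largest shifts at Relb were at 19664913-19665221, 35629 bp off and nearest to Clptm1, 13.9 points up in the knockout and 35.7 points up in rotenone. The folds there were 3.97 in the knockout, 3.81 in control, 5.19 in rotenone and 3.82 in vehicle.

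Nfkb1, which encodes the precursor of the NF-kB1 subunit (chromosome 3, 135584655-135691969), held the largest downward shift of all 48 regions. The region 135580270-135580883, 4079 bp beyond the lower-coordinate end of the gene and nearest to Nfkb1, had a fold of 4.26 in the knockout, 7.90 in control, 3.56 in rotenone and 8.42 in vehicle. Both control libraries were high and both other libraries low, with shifts of -41.7 and -65.1 points, and control and vehicle differed by 1.75 points. The peaks were 353 bp wide in the knockout, 614 bp in control, 554 bp in rotenone and 519 bp in vehicle, and in the knockout 3 peaks covered the region in place of 1. A neighbouring region at 135581857-135582077 did not follow it: the fold was 3.44 in the knockout, 5.99 in control, 6.05 in rotenone and 6.09 in vehicle, so that the knockout alone was low (shifts -38.6 and 11.3 points).

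Inside Nfkb1, the regions 135673068-135673482 and 135674743-135675185 were strong in all 4 libraries. Their fold enrichments were 4.85 and 5.36 in the knockout, 6.43 and 6.43 in control, 6.44 and 5.09 in rotenone, and 6.54 and 7.29 in vehicle. The higher-coordinate end of Nfkb1 had no strong peak within 1000 bp in any library (best folds 3.11, 3.46, 3.21 and 5.32 in the order knockout, control, rotenone and vehicle). The gained knockout peak of the locus was 52 bp wide and lay inside the neighbour Manba, at 135554284-135554335, with a fold of 5.07 in the knockout, 3.25 in control, 3.31 in rotenone and 4.18 in vehicle. The percentile there was 47.9 points above control.

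Nfkb2 encodes the precursor of the NF-kB2 subunit of the non-canonical pathway (chromosome 19, 46300994-46312400). Its first start site, with the kB sites shown above, lay in a region (46304241-46304851) that was strong in all 4 libraries, with a fold of 5.52 in the knockout, 7.13 in control, 5.67 in rotenone and 7.28 in vehicle. The knockout and rotenone folds were lower, but the percentiles were 69.4, 71.0, 65.7 and 70.6, shifts of -1.60 and -4.86 points. The region 46305577-46305759, over the second start site and its GGGACTTTCC site, had the largest shifts at the gene, 12.3 points up in the knockout and 24.3 points up in rotenone. Its fold was 3.83 in the knockout, 4.11 in control, 4.54 in rotenone and 3.77 in vehicle. It counted as gained in rotenone because the vehicle peak had rank 61992, just below the 60000 peaks searched. The call was made again in 1 of 6 alternative settings.

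**Figure D3:**
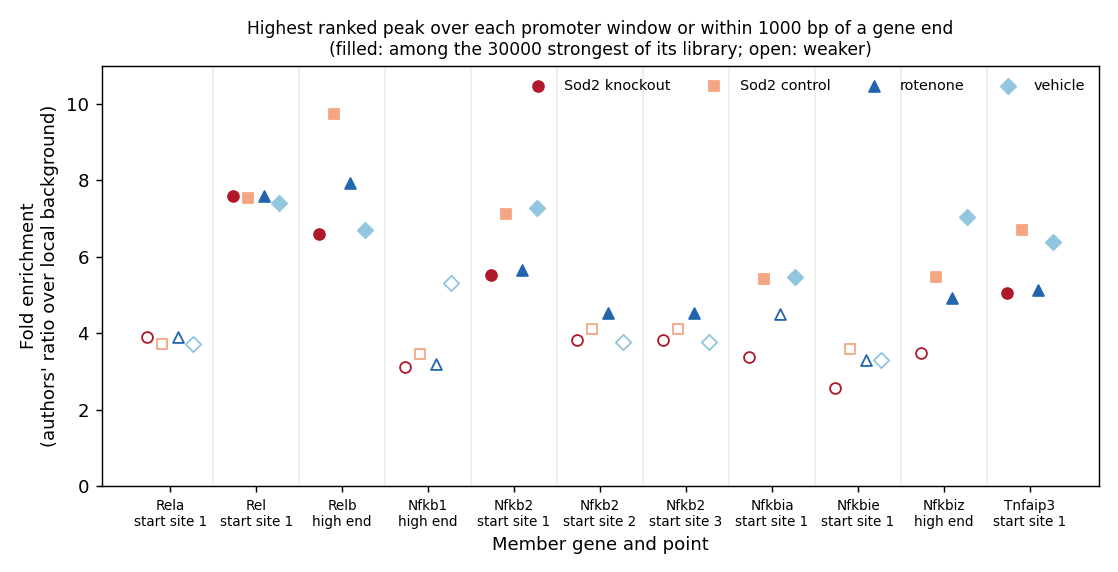
Fold enrichment (y axis, the authors' ratio over local background) of the highest ranked peak over a promoter window, or within 1000 bp of a gene end where RefSeq lists no window, with 1 symbol per library and filled symbols for peaks among the 30000 strongest. Points without a peak in every library are not drawn, among them the second Tnfaip3 start site, which had no peak in any library. At Rel the 4 libraries lie between 7.40 and 7.60, and at Nfkbia the peaks of control (5.43) and vehicle (5.48) are filled and those of the knockout (3.38) and rotenone (4.52) open. The Nfkbia ranks of control (28406), vehicle (28821) and rotenone (31391) lie close to the limit of 30000.

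Among the inhibitors, Nfkbia encodes IkB-alpha, the inhibitor that NF-kB itself induces most quickly (chromosome 12, 55489409-55492647). The region over its promoter and kB site, 55492257-55492961, had a fold of 3.38 in the knockout, 5.43 in control, 4.52 in rotenone and 5.48 in vehicle. Control and vehicle were alike and strong, and the knockout and rotenone were lower and below the strong range, with ranks of 50830 and 31391. The region was 1 peak in control (626 bp) and in vehicle (677 bp). It was split into 2 peaks in the knockout (best 392 bp) and in rotenone (best 376 bp), so a part is set against the whole. The knockout shift was -20.7 points, the largest at the gene in that comparison, and the rotenone shift was -4.33 points. The next region, inside the gene at 55491859-55492146, moved the other way in percentile (14.7 and 11.2 points up), with folds of 6.70 in the knockout, 7.02 in control, 6.68 in rotenone and 6.79 in vehicle.

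Away from the gene, 6 regions lay between 22320 and 46090 bp from Nfkbia on its lower-coordinate side, of which the 4 nearest to it have Nfkbia as the nearest gene and the other 2 Psma6. Within this cluster neighbouring regions had shifts of opposite sign between rotenone and vehicle. At 55464033-55464632 the fold was 3.91 in the knockout, 4.47 in control, 3.53 in rotenone and 4.90 in vehicle (rotenone shift -41.9 points). At 55464939-55465334 it was 3.94 in the knockout, 4.26 in control, 4.51 in rotenone and 3.43 in vehicle (rotenone shift 34.9 points). At the second of these, vehicle stood 29.7 points below control. The percentiles there were 48.8 in the knockout, 49.9 in control, 55.1 in rotenone and 20.2 in vehicle, so vehicle was below every other library. A peak at 55531370-55531544, 38810 bp off and nearest to Aldoart2, was gained in rotenone, with folds of 3.40 in the knockout, 2.62 in control, 4.61 in rotenone and 3.02 in vehicle.

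Nfkbie encodes IkB-epsilon (chromosome 17, 45555700-45563169), and 4 of its 5 regions had a lower percentile in both the knockout and rotenone than in their controls. Of all regions 36.7% did. The median shift was -22.9 points in the knockout and -22.6 points in rotenone, the lowest medians of the 9 genes in both comparisons. At 45563710-45564033, 702 bp beyond the gene and nearest to Slc35b2, the fold was 4.23 in the knockout, 6.999 in control, 4.94 in rotenone and 7.73 in vehicle (shifts -27.5 and -22.6 points). At 45584404-45584783, nearest to Slc29a1, it was 4.46 in the knockout, 7.30 in control, 4.35 in rotenone and 8.53 in vehicle (shifts -24.6 and -50.1 points). Control and vehicle lay above both other libraries at each, yet none of these regions met the definition of lost. The promoter itself, which holds the kB match GGGGGATTCC, had weak peaks, with a fold of 2.57 in the knockout, 3.60 in control, 3.29 in rotenone and 3.30 in vehicle. All 5 regions are nearer to another gene than to Nfkbie. The exception in direction, at 45506781-45507187 inside Aars2, was 21.4 points up in the knockout and 30.4 points up in rotenone.

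Nfkbiz encodes IkB-zeta, a nuclear protein that acts on part of the NF-kB targets (chromosome 16, 55811375-55838954). The strongest region inside the gene, 55821735-55822723, was alike in the 4 libraries, with a fold of 7.23 in the knockout, 6.91 in control, 7.39 in rotenone and 8.04 in vehicle. In contrast, the region 55789376-55789643, 21866 bp off and with Nfkbiz as the nearest gene, had the highest fold of the 48 regions in control and vehicle: 5.08 in the knockout, 11.1 in control, 4.74 in rotenone and 11.8 in vehicle. It was strong in all 4 libraries and so never called lost, but its percentile shifted by -35.7 and -54.5 points, with 0.37 points between vehicle and control. Widths there were 235, 268, 236 and 255 bp in the order knockout, control, rotenone and vehicle.

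Over the higher-coordinate end of Nfkbiz (55838558-55839470) the fold was 3.50 in the knockout, 5.48 in control, 4.93 in rotenone and 7.03 in vehicle. Vehicle stood 17.6 percentile points above control there. The region was split into 2 peaks in the knockout, 2 in rotenone and 3 in vehicle, against 1 in control. The vehicle part at 55839312-55839470 (fold 6.44) was called lost in rotenone (fold 2.42), although the adjoining rotenone peak was strong. The lost knockout peak at 55858596-55858746 lay inside Nxpe3, with folds of 2.43 in the knockout, 5.79 in control, 3.90 in rotenone and 6.48 in vehicle. In the other direction, 55777777-55778280 stood 37.9 points above control in the knockout and 16.6 points above vehicle in rotenone (folds 5.06, 4.70, 5.03 and 5.39 in the order knockout, control, rotenone and vehicle). Fold and percentile order the libraries differently there, and the median fold over all 42457 regions was 4.79, 5.95, 5.25 and 6.26 in the same order.

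Tnfaip3 encodes the ubiquitin-editing enzyme that ends signalling from TNF receptors (chromosome 10, 19000910-19015410), and its 2 regions had smaller shifts than the largest of every other member. The promoter region with both kB sites and an AP-1 match, 19015093-19015853, had a fold of 5.05 in the knockout, 6.70 in control, 5.13 in rotenone and 6.38 in vehicle. The percentiles were 55.5, 61.2, 49.3 and 52.8 in that order, shifts of -5.71 and -3.46 points, and the vehicle library stood 8.37 points below control. The second region, 19586 bp off, was strong in the knockout alone (fold 4.28, against 4.87 in control, 4.14 in rotenone and 4.89 in vehicle), with shifts of 8.71 and 0.46 points.

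**Figure D4:**
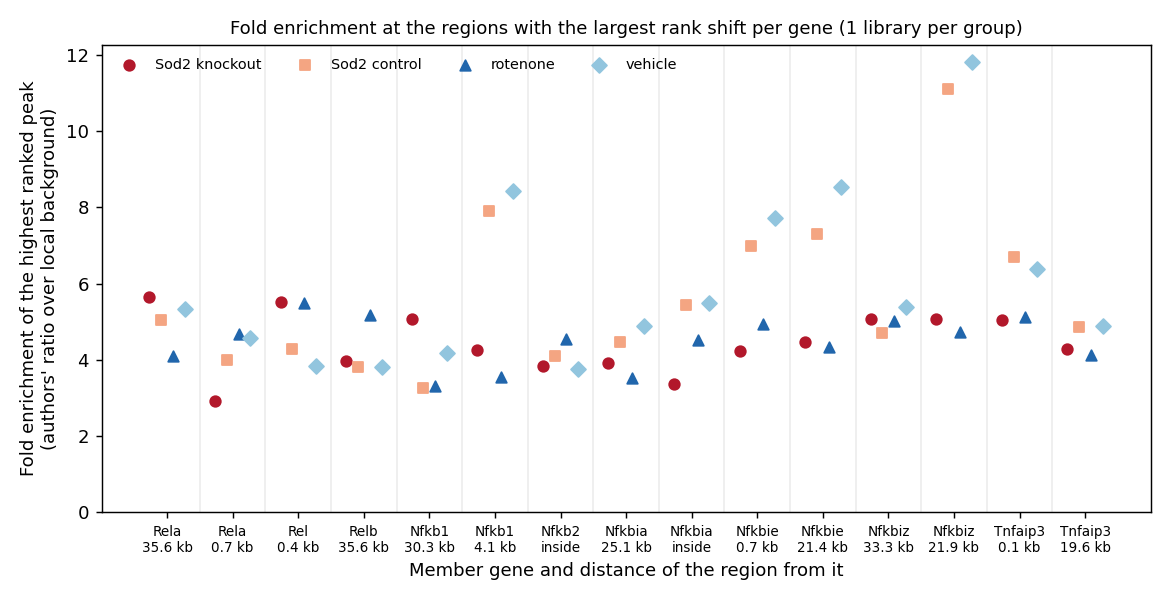
Fold enrichment (y axis, the authors' ratio over local background) in the 4 libraries at the regions with the largest percentile shift per gene and comparison, with the distance of each region from its gene on the x axis. At Nfkb1 (4079 bp), Nfkbie (21424 bp) and Nfkbiz (21866 bp) control and vehicle lie at 7.30 or higher, and the knockout and rotenone at 5.08 or lower.

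The knockout and rotenone comparisons use different libraries. Of the 48 regions, 18 shifted down and 15 up in both, which is 68.8% with the same sign, against 73.8% of all 42457 regions. The correlation of the shifts was r = 0.59 (Spearman 0.56) over the 48 regions and 0.58 (0.59) over all, as a description over regions that share libraries. The knockout and rotenone shifts were thus no more alike here than over all regions, and the part of the lower enrichment of both libraries in this likeness was not tested. The 4 inhibitor and feedback genes had 11 of 23 regions lower and 8 higher in both comparisons, and the 5 subunit genes had 7 of 25 lower and 7 higher. Over all regions 36.7% were lower and 37.1% higher in both. The difference between these groups was not tested.

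**Figure D5:**
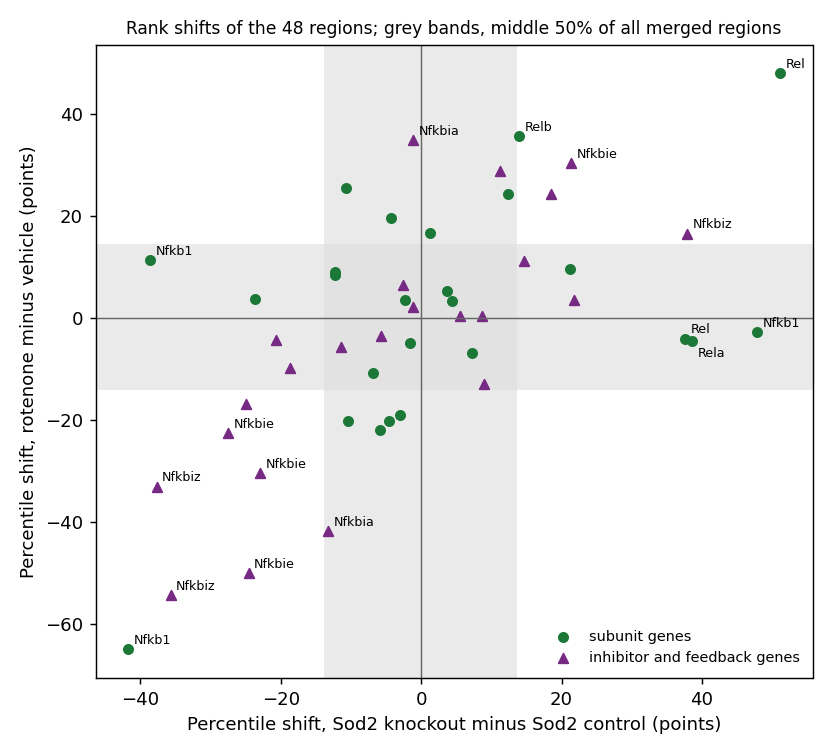
Percentile shift of each of the 48 regions in the knockout (x axis, knockout minus control, points) and in rotenone (y axis, rotenone minus vehicle, points), with grey bands for the middle 50% of all regions. Regions of Nfkb1, Nfkbie and Nfkbiz reach the lower left, a region of Rel stands alone at the upper right (51.1 and 48.01), and 1 region each of Nfkb1, Rel and Rela is high in the knockout only.

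Genes around the 9 members in the pathway were taken from lists written with earlier results of these data known. Of 39 upstream genes (receptors, adaptors, kinases and their regulators), 2 had a gained and 6 a lost region in the knockout, from 3 of 143 and 7 of 154 strong peaks (2.10% and 4.55%). In rotenone 3 had a gained and 9 a lost region, from 3 of 130 and 8 of 147 strong peaks (2.31% and 5.44%). All 4 shares lay below those over all strong peaks given above, whereas vehicle against control gave 0 of 147 gained (1.03% of all) and 4 of 154 lost, a share of 2.60% that was above the 0.847% of all. Irak2, the gene of a kinase downstream of IL-1 receptors, had a peak inside the gene at chromosome 6, 113668748-113669098 that was lost in both comparisons, with folds of 3.14 in the knockout, 6.27 in control, 3.42 in rotenone and 6.22 in vehicle. A second Irak2 peak (113681375-113681490, fold 5.99 in control) was lost in the knockout. Irak3, which encodes an inhibitory member of that family, gained 2 peaks inside the gene in the knockout (folds 4.43 and 4.45, against 3.14 and 3.29 in control).

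Myd88, the adaptor of Toll-like and IL-1 receptors, had a peak within 20 bp of the gene that was lost in both comparisons (chromosome 9, 119339951-119340104 in control), with folds of 2.12 in the knockout, 3.96 in control, 2.62 in rotenone and 3.74 in vehicle. A peak 24216 bp from Peli1, a ubiquitin ligase gene, was likewise lost in both (folds 3.03, 5.44, 3.11 and 5.93 in the order knockout, control, rotenone and vehicle). Ripk1, the gene of a kinase in TNF receptor complexes, lost 1 peak in each comparison, at 37498 bp from the gene in the knockout and at another place, 6826 bp from it, in rotenone. The remaining calls in the knockout were a gain 12121 bp from Otulin and losses 28370 bp from Chuk and inside Tnip1, the last 2 also lost between vehicle and control. In rotenone they were gains 47891 bp from Irak4, inside Tab1 and 18456 bp from Tnip1. Losses in rotenone lay 4115 bp from Bcl3, 24555 bp from Map3k7 and 18173 bp from Tnfrsf1b. A 52-bp peak 13842 bp from Birc3 and 49916 bp from Birc2 was lost as well.

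Of 27 target genes, 3 had a gained and 5 a lost region in the knockout (3 of 64 and 4 of 66 strong peaks, 4.69% and 6.06%), and 2 and 5 in rotenone (3 of 67 and 4 of 70, 4.48% and 5.71%). Over all strong peaks the shares were 5.33% and 6.76% in the knockout comparison and 6.81% and 8.04% in the rotenone comparison, above each of the target genes' shares, and the peaks named here are descriptions of single places. A peak 39117 bp from Icam1, an adhesion molecule gene, was lost in both comparisons, with folds of 2.76 in the knockout, 4.71 in control, 3.11 in rotenone and 4.79 in vehicle. Ccl2 and Ccl7, neighbouring chemokine genes with overlapping windows, had a lost region in each comparison but at different places. The peak at chromosome 11, 82013797-82014083 had a fold of 2.95 in the knockout, 7.63 in control, 4.16 in rotenone and 7.66 in vehicle. Losses near Cxcl10 and Mmp9 and gains near Ccl5, Cflar and Lcn2 made up the rest in the knockout, the Ccl5 peak also being gained between vehicle and control. In rotenone Mmp9 gained 2 and Lcn2 1, and Bcl2l1 and Tnfaip2 lost 1 each. Over the regions of the upstream list, 51.6% stood lower in the knockout and 57.3% in rotenone, and over those of the target list 49.5% and 50.5%, against 49.9% and 49.7% of all regions. Between vehicle and control 54.2% of the upstream and 50.5% of the target regions stood lower, against 51.7% of all.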

How the data were processed

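ATAC-seq peak lists of 4 dermal fibroblast libraries were analysed, grouped by their titles with 1 library per group. Bowtie2, bedtools, MACS2, HOMER and mm10 are named in the submitters' processing notes. Their versions, settings, filters and any Tn5 shift: not given in the sources used here. Each library has 1 deposited list without a header, whose 9 columns follow the broad-peak layout of MACS2. The deposited fold enrichment is a ratio over local background, the deposited −log10 p and −log10 q are the authors' own values, and the deposited score was not used. These values are the authors', describe single peaks and are affected by depth, which is unknown, so ranks within lists of equal length and percentiles within 1 region set were compared.

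Starts were converted to 1-based mm10 positions. Peaks were ranked by −log10 p (ties by fold), the 30000 highest were called strong, strong peaks of the 4 libraries were merged, and gains and losses needed no overlap of 1 bp with the 60000 highest ranked peaks of the partner. Peaks and regions were assigned by midpoint to the 9 RefSeq gene spans plus 50000 bp. A region took the best ranked overlapping peak of each library. Named regions are all calls, the highest ranked region in or within 1000 bp of each member and the largest shift per member and comparison. The members and lists were chosen with earlier results of these data known. Shares have 95% Wilson intervals. The overlap code was tested on the deposited lists with partner peaks removed, and the motif code on simulated sequences with planted sites. Alternatives were other list lengths, ranking by fold, 50% overlap, a 10000 bp window, regions outside other genes, a partner list of any strength and −log10 q of at least 2. Exchanging control and vehicle was added after seeing the data. Software was pandas 2.3.3, numpy 2.4.6, matplotlib 3.10.9 and scipy 1.17.1 under Python 3.11.15.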

Additional observations from a re-analysis of the deposited data

How the results depend on the processing

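No paired analysis was possible because each group has 1 library, and for the same reason no library could be left out. The numbers of gained and lost peaks at the NF-kB genes were small and depended on the settings. In the knockout 2 were gained and 2 lost, and in rotenone 3 and 1. With strong lists of 15000 these were 1 and 0 in the knockout and 0 and 2 in rotenone (4.90%, 5.58%, 5.52% and 6.09% of all strong peaks). With lists of 60000 they were 5 of 66 and 8 of 72, and 9 of 71 and 9 of 72 (12.1%, 14.04%, 15.6% and 16.5% of all). With every partner peak searched down to the length of the shortest list they were 0 and 0, and 0 and 0 (0.303%, 0.643%, 0.773% and 0.953% of all). Within 10000 bp of the genes 1 was gained and 1 lost in the knockout, as was the case outside other protein-coding genes (1 and 1), against 5.33% and 6.76% of all. In rotenone 2 of 17 were gained and 1 of 19 lost within 10000 bp. Outside other protein-coding genes 3 of 26 were gained and 1 of 29 lost in rotenone. The shares of all were 6.81% gained and 8.04% lost in both settings. Losses in the knockout numbered 4 of 31 when ranked by fold (7.69% of all) and 5 of 32 with 50% of a peak covered (13.2% of all), which also gave 3 of 34 losses in rotenone (14.7% of all). With the control libraries exchanged the knockout had 1 of 36 gained (6.25% of all) and 5 of 34 lost (7.88% of all), and rotenone 1 of 32 gained (6.27% of all). The cause of these differences was not tested.

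Strong peaks at the loci followed list length by construction, with 13, 15, 15 and 14 (knockout, control, rotenone, vehicle) for 15000 and 66, 72, 71 and 72 for 60000, and 16, 18, 17 and 19 within 10000 bp. Peaks of any strength within 10000 bp numbered 148, 114, 87 and 111, and those with a −log10 q of at least 2 numbered 210, 206, 168 and 196. The median percentile shift of the knockout turned to 0.80 with vehicle in place of control, and that of rotenone reached 6.97 with lists of 15000. The cause was not tested. All 18 shifts named as the largest per gene and comparison kept their sign in the 3 to 5 settings that could alter a percentile and still held the region. These shifts were picked for their size in the same data, and the settings reuse the same peaks, so the kept sign is no independent check. Of the 8 named gains and losses, each was called again in 1 to 4 of 6 settings that change how calls are made. With strong lists of 15000 none could be called again, because the 8 peaks had ranks from 19220 to 29705. Searching partner peaks of any strength left little room for a call, because every NF-kB region had a peak in each library. The repeat counts are thus partly fixed by the settings. The unknown depth limits every comparison.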
